A study of Rattus norvegicus with 3 samples.

Results

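Oligodendrocyte precursor cells were picked out of a single-cell RNA data set of the injured rat spinal cord by the genes they held. Cells were kept from 200 genes upwards and up to a mitochondrial share of 20% of their UMIs (unique molecular identifiers, each the tag of a captured RNA molecule). A passing cell was a precursor with at least 1 UMI for at least 3 of Cspg4, Pdgfra, C1ql1, Gpr17, Tnr and Olig1, and at least 2 UMIs of Olig1, Olig2 and Sox10 together. Per 10000 UMIs it had to hold under 20 of the fibroblast genes Dcn and Col1a1, under 5 of the oligodendrocyte genes Mog, Mag, Cldn11 and Ermn, and under 10 of the myeloid genes Cd68 and Tyrobp. Of 5815 passing cells among 6471 barcodes, 51 were precursors. The rule also names a seventh precursor gene and a further fibroblast gene that were not analysed here.

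The groups were wild-type rats of 6 to 8 weeks whose injury site was injected with MPG-HD, with G-HD or with PBS, where the first 2 are the hydrogels of the series and PBS was taken as the control. All animals carried the spinal cord injury, so no uninjured cord is among the groups. Tissue of 5 mm around the injury was dissociated, and each group gave 1 library on the 10x Genomics 3′ platform from 5 animals, with no statement of how the animals were pooled. Levels are in CPM, the UMIs of a gene summed over a set of cells per 1000000 UMIs of those cells. With 1 library per group no test was possible, and every interval given is a 95% interval that covers counting error only, not differences between animals or dissociations.

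Oligodendrocyte precursors are dividing glia that keep the adult cord supplied with myelinating oligodendrocytes. They are kept in their state by the PDGF receptor alpha (Pdgfra), carry the proteoglycan NG2 (Cspg4), and are specified by the factors Olig1, Olig2 and Sox10. After injury they divide, take up positions around the lesion, add chondroitin sulfate proteoglycans to the scar, and some go on to differentiate, losing Pdgfra and gaining in turn Bmp4, Bcas1 and Mbp.

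The 25 precursors of MPG-HD held 160917 UMIs, the 19 of G-HD 175598 and the 7 of PBS 54043, with medians of 5975, 8724 and 6888 UMIs per cell. All comparisons with PBS therefore rest on 7 cells. Barcodes shared between libraries numbered 8 for MPG-HD and G-HD, 5 for MPG-HD and PBS and 8 for G-HD and PBS, and 1 of the shared barcodes of MPG-HD and PBS was a precursor. No doublet caller was applied. The limits of the rule remove mixed cells only for 3 other cell types, and 1 precursor of G-HD with 12872 UMIs also held 4 Cd3e, 5 Cd3g and 6 Cd2 UMIs, T cell genes that were at 0 in the other precursors.

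Precursors were 1.20% of the passing MPG-HD cells (25 of 2091, exact binomial interval 0.775 to 1.76), 0.810% of the G-HD cells (19 of 2347, 0.488 to 1.26) and 0.508% of the PBS cells (7 of 1377, 0.205 to 1.04). The 3 intervals overlap. The ratio to PBS was 2.35 for MPG-HD (0.989 to 6.44) and 1.59 for G-HD (0.641 to 4.48), and MPG-HD over G-HD stood at 1.48 (0.781 to 2.84), so no difference in share was detectable at these numbers of cells. A share of all cells also depends on how many other cells a library holds. Set against mature oligodendrocytes (passing cells outside the rule with at least 10 UMIs of Mog, Mag, Cldn11 and Ermn per 10000 and few fibroblast, myeloid or Schwann cell UMIs), precursors were 5.14% of both together in MPG-HD (25 of 486), 6.79% in G-HD (19 of 280) and 2.49% in PBS (7 of 281). On this scale G-HD over PBS was 2.72 (1.10 to 7.67), MPG-HD over PBS 2.06 (0.868 to 5.65), and MPG-HD over G-HD 0.758 (0.401 to 1.46). G-HD held 261 mature oligodendrocytes among 2347 passing cells, against 274 among 1377 in PBS.

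**Figure D1:**
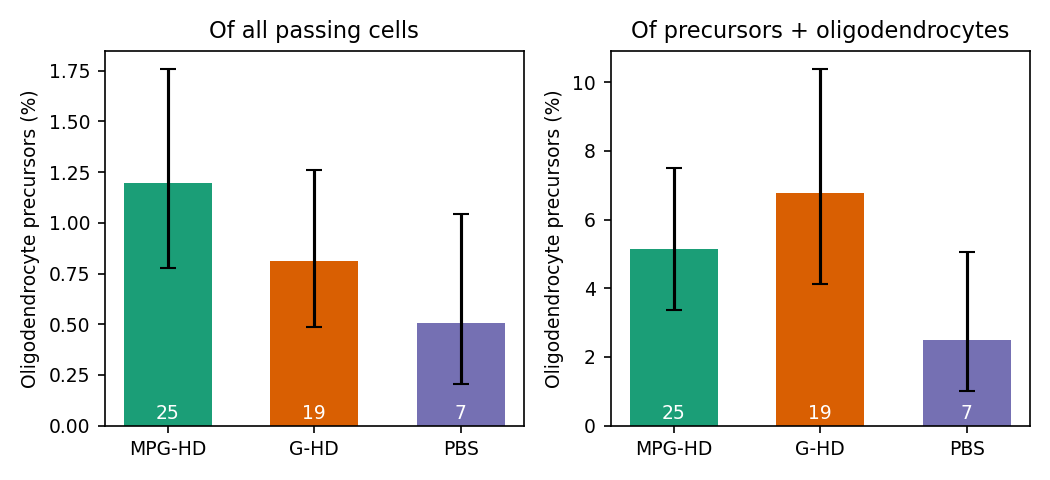
Share of precursors in each library, with exact 95% binomial intervals (bars start at 0; the number in a bar is the number of precursors). Left, of all passing cells, where MPG-HD is highest at 1.20%; right, of precursors and mature oligodendrocytes together, where G-HD is highest at 6.79%.

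The selection genes describe the cells and are no evidence for them. Olig1 was found in 51 of 51 precursors, C1ql1, a secreted C1q-like protein, in 44, Pdgfra in 37, Tnr, the matrix protein tenascin-R, in 37, and Cspg4 in 35. The median depth was 6761 UMIs in precursors and 12615.5 in myeloid cells, which should lack these genes. Of the myeloid cells, 0.935% held Pdgfra, 0.139% C1ql1, 0.381% Tnr, 1.59% Olig1 and 8.34% Cspg4. Gpr17, the receptor of precursors that have begun to differentiate, is the exception to the label: it had 1 UMI in the 51 precursors and 13 UMIs in all 5815 passing cells, so it marked no stage here. Of the precursors, 13 reached the minimum of 3 selection genes, 24 held 4 and 14 held 5.

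Pdgfra stood at 311 CPM in MPG-HD precursors (interval 231 to 410), 216 in G-HD (153 to 297) and 296 in PBS (169 to 481). Cspg4 stood at 186, 182 and 222 CPM in MPG-HD, G-HD and PBS, and Tnr at 224, 165 and 222. C1ql1 stood at 342 CPM in MPG-HD, 262 in G-HD and 148 in PBS (63.9 to 292). Sox10 stood at 541 CPM in MPG-HD, 285 in G-HD and 592 in PBS. The rule used all of these genes, so their levels describe the chosen cells and give no difference between libraries.

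Outside the selection genes, the transcripts that set precursors apart most from all other passing cells, by the lowest fold of the 3 libraries, were Rlbp1, Ptprz1, Fam89a, Ccnd1, Cav2, Tmem255b, Tubb2b, Stmn3, Cav1, Vgf, Otos, Vxn, Gng3, Gpr37l1 and Serpine2. Rlbp1, a retinaldehyde-binding protein, had 889, 888 and 1036 CPM in MPG-HD, G-HD and PBS precursors and 2.05, 2.30 and 2.15 in the other cells of the same libraries. Ptprz1, a receptor phosphatase that is itself a chondroitin sulfate proteoglycan, had 1634, 1071 and 2072 CPM in MPG-HD, G-HD and PBS precursors and 20.5 to 22.5 in other cells. Ccnd1, the G1 cyclin D1, was found in 50 of 51 precursors at 1834 to 3442 CPM, and in 75.4% of Schwann cells at 530 to 821 CPM. Gpr37l1, a glial receptor, stood at 615 to 1001 CPM in precursors and at 295 to 416 CPM in Schwann cells, 78.7% of which held it. The caveolins Cav1 and Cav2, the microtubule genes Tubb2b and Stmn3, the G protein subunit Gng3 and the protease inhibitor Serpine2 are also among them. Tubb2b was found in all 51 precursors, at 1535, 2523 and 1554 CPM in MPG-HD, G-HD and PBS, against 243, 396 and 271 in mature oligodendrocytes of those libraries. As these cells were chosen by expression, this ranking is a description of them.

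Promoter sequences were looked up for these 15 genes in RefSeq (build GRCr8, 250 bases before and 50 after the gene start), and 12 of the genes had an entry. The 2 highest-ranked of them, Rlbp1 (chr1:142731572-142731871, minus strand) and Fam89a (chr19:69619970-69620269, minus strand), are shown because their transcripts set precursors apart most among the genes with an entry, with capitals marking ACAANG, the core motif of SOX factors such as Sox10, on either strand.
Rlbp1: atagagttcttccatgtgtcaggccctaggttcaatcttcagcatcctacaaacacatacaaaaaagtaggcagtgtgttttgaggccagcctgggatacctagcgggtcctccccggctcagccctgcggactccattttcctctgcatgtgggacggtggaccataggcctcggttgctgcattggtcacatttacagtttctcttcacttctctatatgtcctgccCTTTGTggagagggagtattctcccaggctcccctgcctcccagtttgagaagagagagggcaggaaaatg
Fam89a: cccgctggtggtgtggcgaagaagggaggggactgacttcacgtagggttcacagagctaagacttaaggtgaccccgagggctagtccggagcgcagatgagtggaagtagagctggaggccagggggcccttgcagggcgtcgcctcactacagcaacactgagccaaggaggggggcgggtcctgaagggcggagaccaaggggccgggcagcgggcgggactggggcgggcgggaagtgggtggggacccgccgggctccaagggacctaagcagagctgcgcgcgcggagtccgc
The core motif occurs once in the Rlbp1 window and not in the Fam89a window. It was found for 4 of the 12 genes with a promoter (33.3%), against 42.1% of all 33469 RefSeq promoters of the same length, a share of promoters and not of genes. The E-box CAGCTG, a palindrome that reads the same on both strands, was found in 3 of the 12 (25%) and in 15.1% of all, and the E-box CATATG in 0 of the 12 and 4.11% of all.

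**Figure D2:**
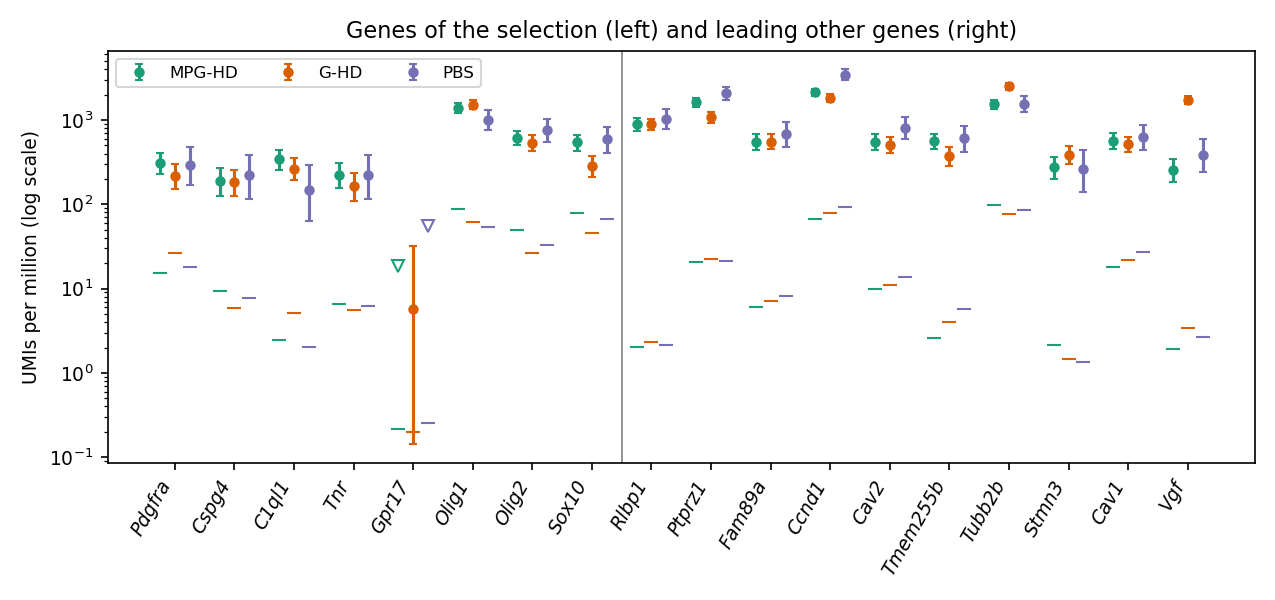
CPM in the precursors of each library (points, log scale) with exact 95% Poisson intervals, for genes of the selection (left of the line) and the 10 leading genes outside it (right); dashes give the other passing cells of the library and open triangles the level of 3 UMIs where the count was 0. Gpr17 stands near 0, and Vgf is highest in G-HD, at 1726 CPM.

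Precursors of all 3 libraries carried some of the receptors through which they are known to sense neurons and growth factors. Most growth factor receptors were too low to compare: 3 or 4 of 22 reached 10 UMIs in each comparison of libraries. Fgfr1, Fgfr2 and Igf1r had 1 UMI each in the 51 precursors, and Fgfr3, Egfr and Insr 0. Ntrk2, the BDNF receptor TrkB, was found in 45 of 51 precursors and stood at 373, 473 and 352 CPM in MPG-HD, G-HD and PBS, against 0.215 to 0.974 in myeloid cells. Gria2, an AMPA glutamate receptor subunit, was found in 41 precursors and 10.6% of mature oligodendrocytes. It was highest in MPG-HD precursors, at 360 CPM (274 to 466), against 205 in G-HD (144 to 284) and 111 in PBS (40.7 to 242). Gria3 was found in 28 precursors and Gria4 in 23, and neither showed this order: Gria4 stood at 74.6, 85.4 and 185 CPM in MPG-HD, G-HD and PBS. Sox9, an astrocyte and early glial factor, had 1 UMI in all precursors.

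Endothelial, B cell, fibroblast and myeloid markers were low in the precursors, while the astrocyte markers Aldoc and Gfap were not. Some neuron markers were also found more often than in other cells, at few UMIs. Syt1, Snap25 and Stmn2 had 12, 8 and 6 UMIs, in 21.6%, 13.7% and 11.8% of precursors. They were found in 0.607%, 0.208% and 0.364% of the other passing cells. The rule limited Dcn, Col1a1, Cd68 and Tyrobp, so low fibroblast and myeloid sums follow in part from the selection. Myeloid cells were chosen by high Cd68 and Tyrobp and mature oligodendrocytes by low, so the myeloid contrast between these cells is a description. The 5 endothelial and 4 B cell markers measured were at 0 in all 3 libraries, and the 6 fibroblast markers summed to 3 UMIs in MPG-HD, 2 in G-HD and 2 in PBS. The 12 myeloid markers summed to 267 CPM in MPG-HD, 564 in G-HD and 296 in PBS, against 36685, 40119 and 40945 in myeloid cells. Mature oligodendrocytes of the same libraries held 228, 485 and 294 CPM of the myeloid markers, and G-HD was highest there too. Of the 8 astrocyte markers, Aldh1l1, Gja1 and Slc1a2 were at 0 throughout, and the sum stood at 559, 678 and 278 CPM in MPG-HD, G-HD and PBS, made up mainly of Aldoc and Gfap. The same sum was lower in mature oligodendrocytes, at 150, 266 and 214 CPM in MPG-HD, G-HD and PBS. Aldoc, a glycolytic enzyme of astrocytes, was found in 76.5% of precursors, 37.2% of mature oligodendrocytes, 23.0% of Schwann cells and 2.84% of myeloid cells, and Gfap in 33.3%, 11.5%, 23.0% and 7.69% of these cells. Gfap, the intermediate filament of reactive astrocytes, had 106 CPM in MPG-HD precursors, 285 in G-HD and 74.0 in PBS, and was held by 6, 9 and 2 of the precursors. What part other cells had in this was not tested.

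Summed over cells, precursors with and without Pdgfra differed in genes of commitment to the oligodendrocyte fate. At least 1 Pdgfra UMI was found in 37 precursors, 18 of 25 in MPG-HD, 13 of 19 in G-HD and 6 of 7 in PBS, and none in 14. The 37 had a median of 6592 UMIs per cell and the 14 a median of 7743.5, so the cells without Pdgfra were not the shallower ones. Pdgfra belongs to the rule and the 14 cells passed through the other selection genes, so the split is a description.

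Bmp4, a secreted BMP ligand that marks committed precursors, stood at 66.7 CPM in the 37 precursors with Pdgfra against 414 in the 14 without, a ratio of 0.161 (0.0884 to 0.281). The Bmp4 level of the 14 was uneven: 4 of them held 13, 13, 9 and 4 UMIs, while none of the 37 held more than 3. Sirt2, a tubulin deacetylase of the oligodendrocyte lineage, stood at 330 CPM with Pdgfra and 1674 without (ratio 0.197, 0.152 to 0.254), and the lipid carrier Apod at 419 and 1707 (ratio 0.245, 0.193 to 0.310). The cell cycle inhibitor Cdkn1c had a ratio of 0.239 (0.158 to 0.357), the tubulin Tuba1a 0.396, Bcas1, a gene of newly forming oligodendrocytes, 0.504 and the myelin enzyme Cnp 0.508. All of these were thus lower in the sums of the cells with Pdgfra. Bcas1 was uneven among the 14 as well, from 0 to 32 UMIs in a cell. The sums therefore do not describe each of the 14, and the intervals do not cover differences between cells. Mbp went the other way, at 478 CPM with Pdgfra and 191 without (ratio 2.51, 1.60 to 4.10) in these sums, but 49 of its 129 UMIs lay in 1 cell and 28 in another. Without these 2 cells, picked after their values were seen, Mbp stood at 198 CPM with Pdgfra and 191 without (ratio 1.04, 0.626 to 1.78). The committed-precursor list as a whole stood at 1571 CPM with Pdgfra and 4136 without (ratio 0.380, 0.333 to 0.433).

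Other genes were more abundant in the precursors with Pdgfra. The interferon-inducible Ifi27l2b had 1004 CPM in the 37 and 240.4 in the 14 (ratio 4.18, 2.84 to 6.36), and Ccnd1 2516 and 1409 (ratio 1.79, 1.51 to 2.13). Ifi27l2b was uneven: 1 cell held 75 of its 170 G-HD UMIs and 1 cell 41 of its 112 MPG-HD UMIs. S100a10, an annexin partner, stood at a ratio of 1.60 (1.34 to 1.93), vimentin (Vim) at 1.56 (1.23 to 2.01) and Rlbp1 at 1.54 (1.19 to 2.00). Olig1, which was found in every precursor, stood at 1438 CPM with Pdgfra and 1293 without, a ratio whose interval spans 1 (0.921 to 1.35). The S-phase genes had a ratio of 1.97 (1.47 to 2.66). Of their UMIs, 193 lay in the 8 precursors that held both Mki67 and Top2a, all of them with Pdgfra, and 120 in the other precursors.

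Cells just outside the rule held less Pdgfra and more Bmp4 and Mbp. Of 99 passing cells that met the precursor gene steps, 46 were removed by the oligodendrocyte limit alone, 14 in MPG-HD, 23 in G-HD and 9 in PBS. The highest precursor held 4.14 UMIs of the limiting genes per 10000 and the lowest removed cell 5.37. In the 51 precursors Pdgfra stood at 266 CPM, Bmp4 at 174 and Mbp at 389, against 124, 539 and 770.3 in the 20 removed cells at 5 to 20 per 10000. In the 26 removed cells at 20 or more, the same genes stood at 28.0, 738 and 4678. Rlbp1 had 909 CPM in precursors and 56.0 in those 26 cells, and Tnr went the other way, with 197 in precursors and 448 in the 26. The limit used Mog, Mag, Cldn11 and Ermn, so the order of other myelin genes across it is a description and no test.

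**Figure D3:**
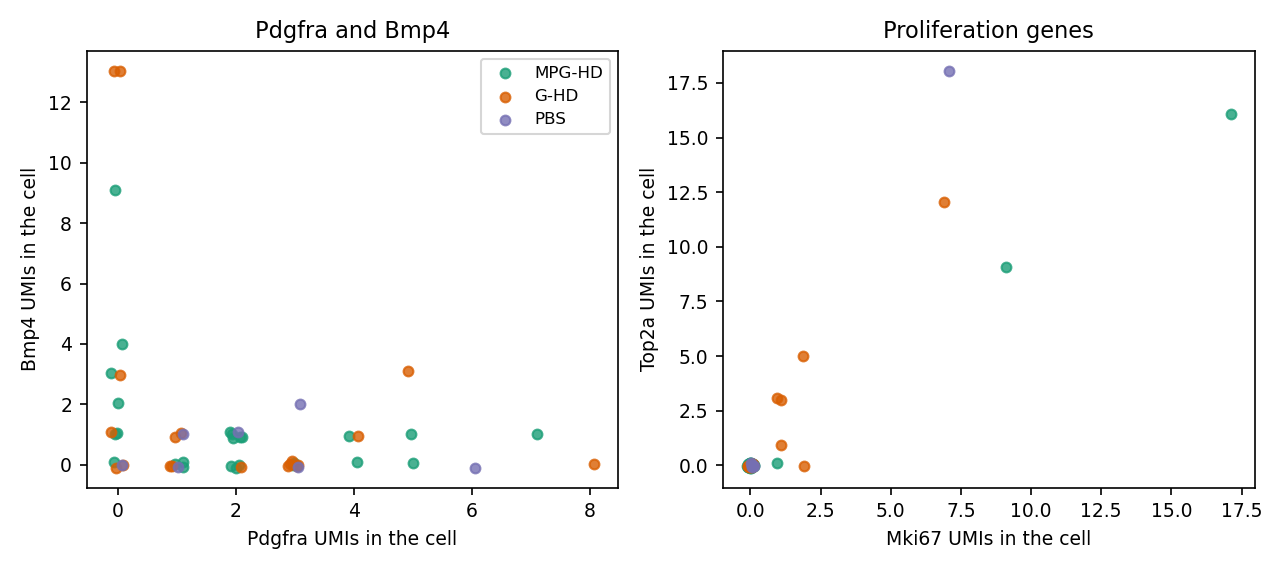
Each point is 1 of the 51 precursors, coloured by library (points are jittered). Left, Pdgfra against Bmp4 UMIs, where the 4 cells with at least 4 Bmp4 UMIs all sit at 0 Pdgfra UMIs; right, Mki67 against Top2a UMIs, where 8 cells hold both.

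Transcripts of dividing cells were found in precursors of every library. Mki67 and Top2a, which are made in cycling cells, were both present in 8 of 51 precursors, 2 of 25 in MPG-HD (8.00%, 0.984 to 26.0), 5 of 19 in G-HD (26.3%, 9.15 to 51.2) and 1 of 7 in PBS (14.3%, 0.361 to 57.9). The intervals overlap, so no difference between libraries was detectable. With each precursor thinned to 3000 UMIs, which leaves out 2 shallower PBS cells, Top2a was found in 2 of 25, 5 of 19 and 1 of 5 precursors of MPG-HD, G-HD and PBS. The cycling cells were deeper than the rest, with a median of 10417.5 UMIs against 6412. The precursor with T cell UMIs is among the 5 of G-HD, with 1 Mki67 and 3 Top2a UMIs. Mki67 was found in 0.502% of mature oligodendrocytes and 9.63% of myeloid cells.

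All 8 cycling precursors held Pdgfra, as did 37 of all 51. The 19 G2/M genes stood at 3071 CPM in the 37 precursors with Pdgfra and at 166 in the 14 without (ratio 18.5, 11.9 to 30.5). Of their UMIs, 802 lay in the 8 cycling cells and 47 in the other 43 precursors. Mki67 and Top2a, which define the cycling cells, belong to these 19 genes, so that split follows in part from the definition. The ratio thus reflects where those 8 cells fell, and its interval does not cover differences between cells. Cycling precursors held less of the committed-precursor list, at 1126 CPM against 2718 in the other precursors (ratio 0.414, 0.332 to 0.511), and less Olig1, at 781 against 1568. Vim was 1.76-fold higher in cycling cells (1.42 to 2.18) and S100a10 1.70-fold (1.44 to 1.99), while Mgp was lower at 0.287 and Cd9, a membrane tetraspanin, at 0.389. Vgf was 3.39-fold higher, with 157 of its 180 UMIs in 1 cell.

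To compare libraries, UMIs were summed over the precursors of each and scaled to CPM, and a gene counted as past the fold when 1 sum was at least 2-fold the other and both together held at least 20 UMIs. MPG-HD and G-HD are each compared with the same 7 PBS cells, so these 2 comparisons are not independent. For the lists of genes, a gene was measured with at least 10 UMIs and counted from 1.5-fold on.

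MPG-HD and G-HD precursors, the larger sets, differed in genes of glycolysis and of the injury response. Of 2689 genes, 93 were at least 2-fold higher in MPG-HD (3.46%) and 123 at least 2-fold lower (4.57%), or 216 in all (8.03%), and the median log2 ratio over all of them was -0.0035. Of the 12 measured hypoxia and glycolysis genes, 7 were at least 1.5-fold lower in MPG-HD and 2 higher, with a median log2 ratio of -0.74, against 18.6% lower and 17% higher over all 4421 genes. Of 6 measured S-phase genes, 5 were lower and 0 higher (median -1.31), beside the 2 and 5 cycling cells of these libraries. Of 14 measured G2/M genes, 5 were higher and 1 lower (median 0.13), so the S-phase and G2/M lists did not go the same way.

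Ldha, lactate dehydrogenase A, had 311 CPM in MPG-HD precursors and 997 in G-HD, a ratio of 0.312 (0.223 to 0.429), with PBS at 389. G-HD was thus the library that stood apart in Ldha, although its precursors ranged between 0 and 24.4 UMIs per 10000, with a median of 6.16 against 2.69 in MPG-HD. Eno1, enolase 1, stood at 472 CPM in MPG-HD against 888 in G-HD (ratio 0.532, 0.399 to 0.704) and Pgk1, phosphoglycerate kinase, at 286 against 507 (ratio 0.564, 0.386 to 0.814). Aldoa, aldolase A, had a ratio of 0.743 (0.589 to 0.935), short of 1.5-fold. Ldha was also lower in MPG-HD in mature oligodendrocytes (ratio 0.587) and myeloid cells (0.618).

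Of 11 measured injury-response genes, 6 were lower in MPG-HD than in G-HD and 1 higher (median log2 ratio -0.64), against 18.6% lower and 17% higher over all 4421 genes. The alarmin cytokine Il33 had 547 CPM in MPG-HD precursors, 1543 in G-HD and 722 in PBS, a ratio of MPG-HD over G-HD of 0.354 (0.275 to 0.452). Of the 271 G-HD UMIs of Il33, 129 lay in 1 cell, and leaving out the top cell of both libraries gave a log2 ratio of -1.01 in place of -1.50. Vim had 566 CPM in MPG-HD, 1429 in G-HD and 999 in PBS (ratio 0.396, 0.308 to 0.505). The galectin-1 gene Lgals1 stood at 547 against 985 (ratio 0.555, 0.424 to 0.722) and S100a10 at 1442 against 1936 (ratio 0.745, 0.627 to 0.882). Vim and Il33 were lower in MPG-HD in mature oligodendrocytes too, at ratios of 0.271 and 0.326, while in myeloid cells Vim stood at 0.572 and Il33 at 1.71.

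The other genes named as lower in MPG-HD than in G-HD were Fam111a, a replication-linked protease (ratio 0.106, 0.0207 to 0.339), the translation repressor Eif4ebp1 (0.0574, with 1 UMI in MPG-HD), the polyamine enzyme Odc1 (0.164), Tmed1 (0.227), Tpgs2 (0.182) and Lyz2 (0.303). Fam111a was lower in mature oligodendrocytes (0.0861) and myeloid cells (0.380) as well. Lyz2, lysozyme, is a myeloid gene with 10 UMIs in MPG-HD precursors, 36 in G-HD and 3 in PBS, and its level in myeloid cells was 7714 CPM in MPG-HD and 16382 in G-HD. Of the 9 genes named as lower, 7 were at least 1.5-fold lower in mature oligodendrocytes also, against 17.5% of all 9197 genes measured there. In myeloid cells 4 were lower, against 8.28% of 10435 genes, and Il33 was higher.

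The genes named as higher in MPG-HD than in G-HD were Mbp, Bgn, Fosb, Maged2, Sulf2, Tmem223, Zcchc24, Cdk2ap1, Tmem50a and Pigp. Bgn, the small proteoglycan biglycan, had 466 CPM in MPG-HD precursors, 148 in G-HD and 296 in PBS, a ratio of 3.15 (1.99 to 5.12). It was spread over 23 of 25 MPG-HD precursors and 9 of 19 in G-HD (19 and 6 with each cell thinned to 3000 UMIs), and in mature oligodendrocytes it went the other way, at 0.305. Sulf2, which trims heparan sulfate, had 597 CPM in MPG-HD, 279 in G-HD and 592 in PBS, so G-HD was the low library. Mbp, myelin basic protein, had 640, 205 and 241 CPM in MPG-HD, G-HD and PBS, and of the 103 MPG-HD UMIs 49 lay in 1 cell and 28 in another, both with Pdgfra. Without the top cell of each library the log2 ratio of Mbp was 0.93 in place of 1.64, and without both of those MPG-HD cells it turned to -0.27 (ratio 0.828, 0.480 to 1.41), so the higher Mbp of MPG-HD rests on 2 cells. None of the 10 was 1.5-fold higher in mature oligodendrocytes or myeloid cells, where 2.83% and 5.4% of all measured genes were, and Bgn and Maged2 were at least 1.5-fold lower in mature oligodendrocytes.

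**Figure D4:**
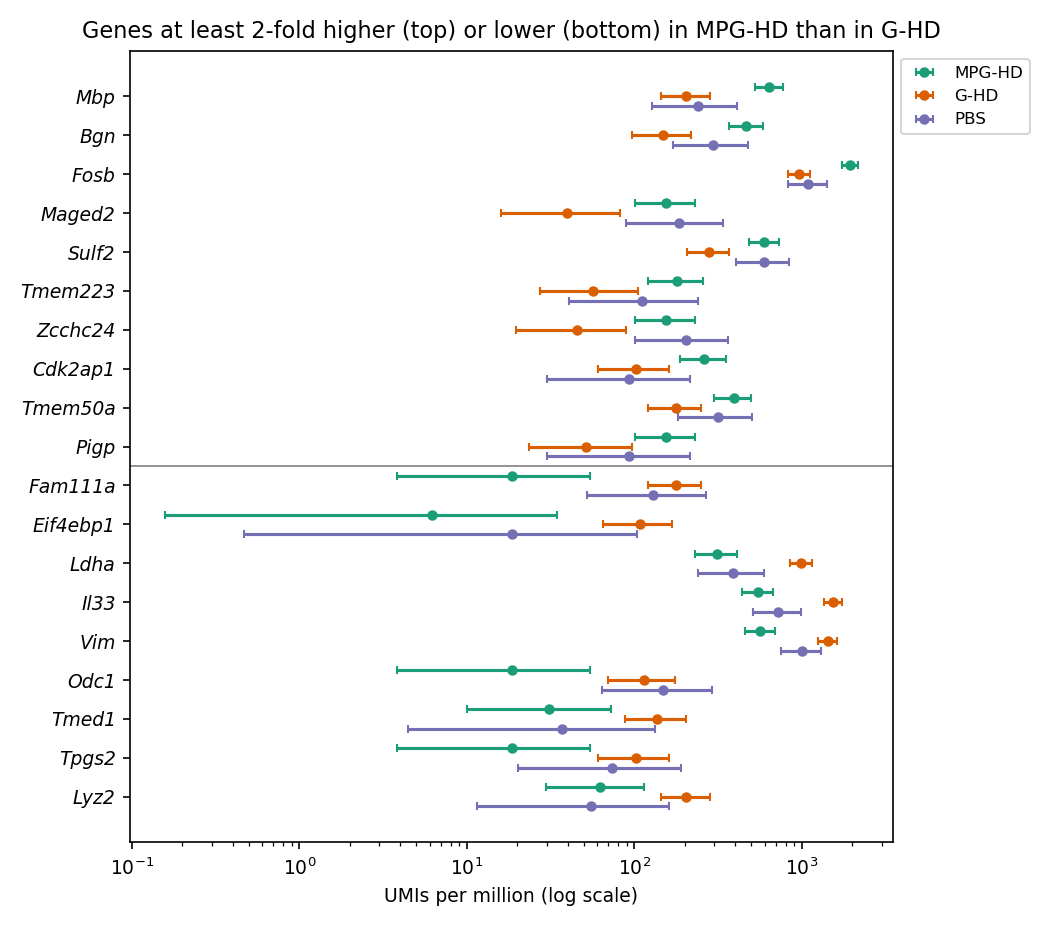
CPM (log scale, exact 95% Poisson intervals) in the precursors of each library for the 10 genes named as higher (above the line) and the 9 named as lower (below) in MPG-HD than in G-HD. For Ldha, Il33 and Vim the G-HD point lies right of both others, and for Bgn and Sulf2 left of both.

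Immediate early genes, which cells switch on within minutes of a stimulus, tissue dissociation included, were highest in MPG-HD. Fosb had 1939 CPM in MPG-HD precursors, 968 in G-HD and 1092 in PBS, and Fos had 7513, 4818 and 4774. Fos had a ratio of 1.56 for MPG-HD over G-HD (1.43 to 1.70) and 1.57 over PBS (1.37 to 1.81). Of the measured genes of this list, 4 of 13 were higher and 1 lower in MPG-HD than in G-HD (median log2 ratio 0.40), and 8 of 11 higher and 1 lower than in PBS (median 0.83, against 20.6% higher and 20.7% lower over all 3343 genes). G-HD over PBS had a median of 0.013 on this list, with 3 of 11 higher and 0 lower, against 21% higher and 21.1% lower over all 3526 genes. When every cell weighed the same, the MPG-HD over G-HD median was -0.029 and Fosb stood at a log2 ratio of 0.42. In mature oligodendrocytes Fosb had a ratio of MPG-HD over G-HD of 0.915.

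G-HD precursors were compared with the 7 PBS precursors over 1981 genes, of which 150 were at least 2-fold higher in G-HD (7.57%) and 108 at least 2-fold lower (5.45%), or 258 in all (13%). Scaled by TMM instead, which moves the median log2 ratio of all genes to 0.23 in place of -0.034, 255 were higher and 38 lower. The genes named as higher were Sirt2, Tuba1a, Ddx24, Apod, Psmd13, Ifi27l2b, Mt3, Cryab and Ldha. Sirt2 had 1036 CPM in G-HD precursors and 222 in PBS, a ratio of 4.67 (2.61 to 9.20), and Apod 980 and 278, a ratio of 3.53 (2.08 to 6.44). The top G-HD cell of each gene held 64 of 182 Sirt2 UMIs, 53 of 172 Apod UMIs and 228 of 1038 Tuba1a UMIs. Both were abundant in the precursors without Pdgfra, of which PBS had 1: with those cells left out of both libraries, Sirt2 had a log2 ratio of 1.17 in place of 2.22, Apod 1.05 in place of 1.82 and Tuba1a 0.93 in place of 1.53, and 169 genes were past 2-fold in place of 258. Mt3, a metallothionein, had 649 CPM in G-HD and 204 in PBS (ratio 3.19, 1.72 to 6.57), and Ldha 997 and 389 (ratio 2.56, 1.63 to 4.25). Ifi27l2b had a ratio of 2.91 (1.78 to 5.02) in precursors and of 8.25 in mature oligodendrocytes (6.55 to 10.5). Of the 9 genes named as higher, 2 were at least 1.5-fold higher in mature oligodendrocytes and 0 lower, against 10.3% higher over all genes there. In myeloid cells 1 was higher, against 8.6% of all genes, and 2 were lower, Mt3 (0.0791, 0.0620 to 0.0999) and Cryab (0.650).

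The genes named as lower in G-HD than in PBS were Luc7l3, Cdh13, Tagln2, Ppial4d, Hmgb1, Desi2, Pcm1, Nrcam, Rrbp1 and Nap1l5. Luc7l3, a splicing factor, had 154 CPM in G-HD precursors and 518 in PBS (ratio 0.297, 0.168 to 0.522). The cadherin Cdh13 had 79.7 and 278 (ratio 0.287, 0.128 to 0.638) and the adhesion molecule Nrcam 74.0 and 241 (ratio 0.308, 0.131 to 0.721). In mature oligodendrocytes 0 of these 10 were 1.5-fold lower, against 7.05% of all genes measured there, and Tagln2 (1.72), Desi2 (1.52) and Nrcam (4.53) were higher. In myeloid cells 3 of the 9 measured were lower, Luc7l3 (0.546), Hmgb1 (0.570) and Nap1l5 (0.237), against 8.87% of all genes, and Nrcam was higher (1.62). Ptprz1, not among those 10 since its ratio missed 0.5, had 1071 CPM in G-HD and 2072 in PBS (ratio 0.517, 0.407 to 0.659).

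MPG-HD precursors against the same PBS cells gave 138 of 1874 genes at least 2-fold higher (7.36%) and 90 at least 2-fold lower (4.8%), which is 228 in all (12.2%), or 232 and 36 under TMM scaling, which moves the median log2 ratio to 0.23 in place of -0.060. The genes named as higher were Cdkn1c, Carhsp1, Cdk11b, Mgp, Cd9, Med30, Cryab, Tuba1a, Apod and Ninj2. Cdkn1c, the inhibitor p57 that is known to act when precursors leave the cycle, had 423 CPM in MPG-HD precursors, found in 13 of 25, and 55.5 in PBS, found in 2 of 7 (ratio 7.61, 2.50 to 37.8). Cd9 had 8551 and 3997 (ratio 2.14, 1.85 to 2.48). Without the precursors that lack Pdgfra, the log2 ratio was 0.62 for Cd9 in place of 1.10, 0.53 for Tuba1a in place of 1.12, 0.16 for Apod in place of 1.56 and 1.58 for Cdkn1c in place of 2.93, and 135 genes were past 2-fold in place of 228. Here too fewer genes reach 20 UMIs, so these 2 counts are not over the same genes. Cdk11b, Med30 and Ninj2 had no UMI in PBS, and their 25, 22 and 20 UMIs put them at least 2.80-fold, 2.46-fold and 2.24-fold higher, taking 3 UMIs as the limit in PBS. Mgp, a matrix protein that binds calcium, had 2125 and 796 CPM (ratio 2.67, 1.94 to 3.76), with 149 of 342 MPG-HD UMIs in 1 cell, and in mature oligodendrocytes it went the other way, at 0.181 (0.161 to 0.204), while in myeloid cells it was higher in MPG-HD too, at 5.36 (4.08 to 7.15).

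The genes named as lower in MPG-HD than in PBS were Mrps6, Snrpa1, Zwint, Luc7l3, Masp1, Ncald, Hnrnpk, Anxa6 and Dut. Zwint, a kinetochore protein, had 193 CPM in MPG-HD precursors and 500 in PBS (ratio 0.386, 0.223 to 0.671), and Dut, which keeps uracil out of DNA, 74.6 and 241 (ratio 0.310, 0.129 to 0.737). Lgals1 had 547 CPM in MPG-HD and 1462 in PBS (ratio 0.374, 0.273 to 0.513), with 48 of the 79 PBS UMIs in 1 cell. In the 9 named genes, which do not include Lgals1, the PBS sums were at most 28 UMIs.

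Read across the lists, several genes of differentiation stood higher in the precursors of both hydrogel libraries than in PBS. Of 6 measured myelin genes, 4 were higher and 0 lower in MPG-HD (median log2 ratio 1.15) and 3 higher and 0 lower in G-HD (0.75), against 20.6% and 21% higher over all genes. In MPG-HD, Mbp is 1 of the 4: without the 2 cells that hold most of it, its ratio to PBS was 0.705 (0.350 to 1.495) and the myelin median 0.67. Without them, precursors held 170 CPM of Mbp in MPG-HD and 205 in G-HD, against 177 and 120 in myeloid cells. Mbp was found in 60.8% of precursors and 66.4% of myeloid cells, so its level in precursors was near that of myeloid cells. The myelin genes Cnp and Pllp were found in 100% of precursors, and in 48.3% and 7.96% of myeloid cells. Of the committed-precursor genes, 4 of 7 were higher in MPG-HD (0.98) and 4 of 6 in G-HD (0.81), with 0 lower in each. Cryab, a small heat shock protein of oligodendrocytes, had 603 CPM in MPG-HD, 564 in G-HD and 167 in PBS (ratios 3.62, 1.83 to 8.15, and 3.39, 1.71 to 7.62), and was found in 22 of 25, 18 of 19 and 5 of 7 precursors. Bcas1 had 764, 706 and 389 (ratios 1.97, 1.23 to 3.29, and 1.82, 1.14 to 3.04). Without the precursors that lack Pdgfra, which are 7 of 25 in MPG-HD, 6 of 19 in G-HD and 1 of 7 in PBS, the committed-precursor medians turned to -0.23 for MPG-HD and -0.25 for G-HD, while the myelin medians were 1.17 and 0.010.

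Genes of the G2/M phase were lower in both hydrogel libraries than in PBS in these sums, and 1 cell carried much of the PBS level. Of 13 measured G2/M genes, 9 were lower and 0 higher in MPG-HD (median log2 ratio -1.10) and 11 lower and 0 higher in G-HD (-1.20), against 20.7% and 21.1% lower over all genes. Ube2c, a mitotic ubiquitin enzyme, had 155 CPM in MPG-HD, 182 in G-HD and 666 in PBS. In PBS, 35 of its 36 UMIs and all 18 Top2a UMIs lay in the only cycling cell. That cell is 1 of 7 in PBS, against 2 of 25 in MPG-HD and 5 of 19 in G-HD.

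Of the precursor identity genes, 6 of 18 were higher and 0 lower in MPG-HD than in G-HD (median log2 ratio 0.38), with Ptprz1 at a ratio of 1.53 (1.26 to 1.85), and of the lineage transcription factors 5 of 12 were higher and 1 lower (0.39), against 17% higher and 18.6% lower over all 4421 genes. In each of these lists the interval of 2 genes excluded 1. Against PBS the identity medians were -0.15 for MPG-HD and -0.32 for G-HD, and 0.14 and -0.051 under TMM scaling, so the sign for MPG-HD turned with the scaling. Ptn, the pleiotrophin ligand of the Ptprz1 receptor, was found in all 51 precursors at 1697 CPM in MPG-HD, 1498 in G-HD and 2128 in PBS. Of the proteoglycan core proteins of the scar, Vcan had 603, 467 and 389 CPM in MPG-HD, G-HD and PBS, while Ncan had 4, 1 and 2 UMIs and Bcan 7, 4 and 2. Of 10 heat shock genes, 2 were lower in MPG-HD than in G-HD and 0 higher (-0.24), and of 7 measured interferon genes 2 were lower and 0 higher (-0.48), 1 of the 7 with an interval that excludes 1. Over all genes 18.6% were lower and 17% higher. Class II genes had 3, 9 and 1 UMIs in MPG-HD, G-HD and PBS precursors, too few to compare.

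Vgf, the precursor of secreted neuropeptides, was uneven between cells. It stood at 255 CPM in MPG-HD, 1726 in G-HD and 389 in PBS, but 157 of the 303 G-HD UMIs lay in 1 cell, and it was found in 11 of 25, 15 of 19 and 4 of 7 precursors. Its median per cell was 0, 4.49 and 1.91 UMIs per 10000 in MPG-HD, G-HD and PBS. Mature oligodendrocytes held 3.77 to 15.7 CPM of Vgf.

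**Figure D5:**
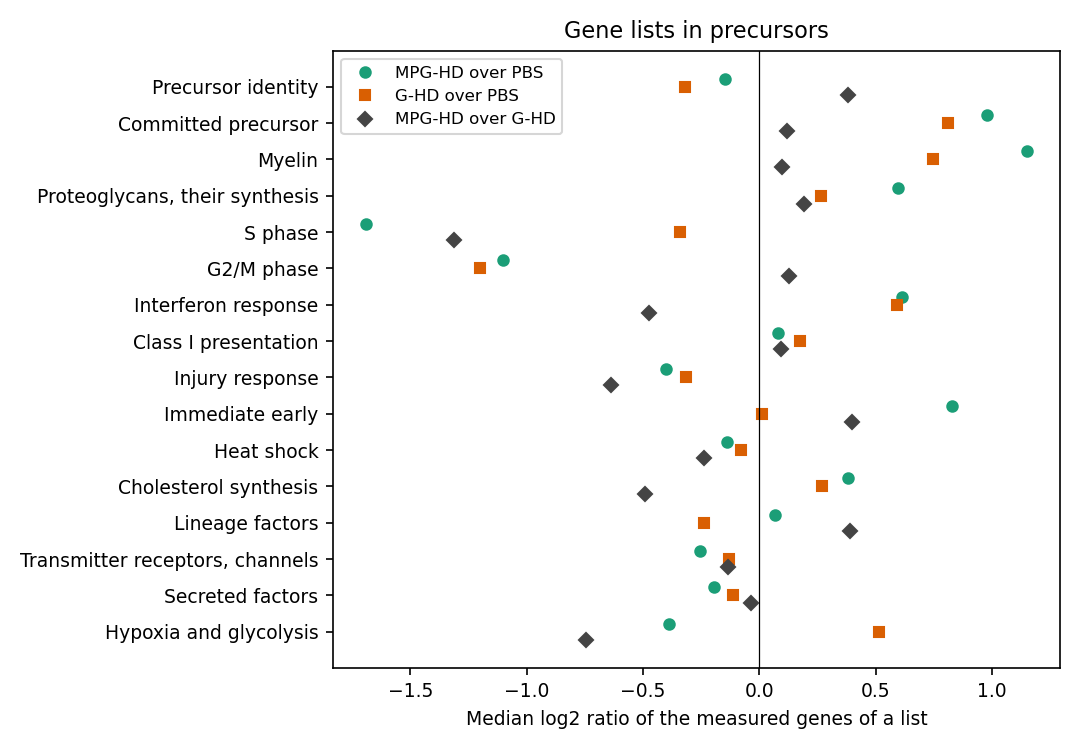
Median log2 ratio of the measured genes of each list in the 3 comparisons of libraries (lists with at least 4 measured genes in each comparison; points have no error bars, as there are no replicates). Hypoxia and glycolysis genes lie at -0.74 in MPG-HD over G-HD, immediate early genes at 0.83 in MPG-HD over PBS, and myelin genes at 1.15 and 0.75 in MPG-HD and G-HD over PBS.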

How the data were processed

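The deposited matrices hold whole UMI counts per gene and barcode for 3 libraries that the authors left unnormalized, as the file headers and whole values show. Cell Ranger 3.0.2, GRCm38 and mm10 (both mouse) are listed in the submitters' processing notes. Rat Ensembl identifiers stand in the feature tables and software version 3.1.0 in the matrix header. Coordinates of counted features are not printed, since their rat build is not given in the sources used here. Gene symbols are those of the deposited feature tables, and features not analysed here include genes of the rule and of some lists.

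Counts were read with Python 3.11, NumPy 2.4.6, SciPy 1.17.1 and pandas 2.3.3. Shares carry Clopper-Pearson intervals, levels Poisson intervals and ratios exact conditional intervals, all at 95%. They assume independent molecules and say nothing of animals. TMM scaling used edgeR 4.0.16. The interval code was tested on simulated data. Library totals were 23988263 UMIs for MPG-HD, 26289759 for G-HD and 16081082 for PBS. The members and gene lists were chosen with earlier results of these data known, so no list is independent evidence. Named genes were those at least 2-fold apart with at least 20 UMIs, the same direction with every cell weighing the same, at least 3 members with a UMI in the higher library and no member holding over 50% of its UMIs. They were ranked by the interval bound nearest 1, and 10 were taken each way, leaving out genes of the rule and mitochondrial, ribosomal protein and haemoglobin genes. A few genes, some of them among these or in the lists, are not reported here. From each list the 4 measured genes with the most UMIs could be named. Genes quoted within groups of cells, or in a list beyond that, were chosen after their values were seen. Leading genes were ranked with 20 CPM added to each level. Myeloid cells were passing cells outside the rule with at least 10 UMIs of Cd68 and Tyrobp per 10000 and at least 2 of Csf1r, Ptprc and C1qa. Alternatives changed the cell filter, the rule, the depth, the scaling, the weight of cells and the minimum of UMIs.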

Additional observations from a re-analysis of the deposited data

How the results depend on the processing

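No paired analysis was possible because each group has 1 library. The shares of precursors kept their place within counting error under every alternative run. The counts of genes past 2-fold moved most with the minimum of UMIs. With 1 UMI they were 2105 for G-HD over PBS (540 higher, 1565 lower) and 1980 for MPG-HD over PBS (579 higher, 1401 lower). For MPG-HD over G-HD they were 1943 (1050 higher, 893 lower). Lower genes thus outnumber higher ones against PBS, unlike the counts as given, but this follows in part from depth. A single UMI is 18.5 CPM in PBS and 6.21 in MPG-HD, so a gene with 1 UMI in each counts as lower. A gene at 0 in PBS is set against 3 UMIs there, or 55.5 CPM, and needs many more UMIs to count as higher. The turn in direction is therefore not read as a result. With 50 UMIs the counts were 47 for G-HD over PBS, 44 for MPG-HD over PBS and 34 for MPG-HD over G-HD. Members thinned to 3000 UMIs, where fewer genes can be tested, gave 116 for G-HD over PBS and 87 for MPG-HD over G-HD. Scaling by median of ratios gave 250 higher and 38 lower for G-HD over PBS and 228 and 40 for MPG-HD over PBS.

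With at least 2 of the rule genes, the median of the BMP, Notch and Wnt target list for G-HD over PBS turned to -0.29 in place of 0.69, a median over 4 measured genes. With equal cell weight the interferon median of MPG-HD over PBS was -0.21 in place of 0.61, where 4 genes were measured. The rest were alternatives added after seeing the data. Without cycling members G-HD over PBS had 169 genes past 2-fold. Without members that lack Pdgfra, G-HD over PBS had 169 and MPG-HD over PBS 135, and the committed-precursor medians turned to -0.25 for G-HD and -0.23 for MPG-HD over PBS. With fewer members fewer genes reach the minimum of UMIs, so these counts are not over the same genes as the main ones. With an oligodendrocyte limit of 20 per 10000, the proteoglycan median of MPG-HD over PBS stood at -0.12 in place of 0.60, where 5 genes were measured. The cause was not tested beyond what each alternative leaves out. Among named genes, 857 values under alternatives kept direction and size within counting error, 49 moved and 1 turned, Mbp in MPG-HD over G-HD, at a log2 ratio of -0.27 without the 2 members with the most Mbp. Without the member with T cell UMIs none of the named genes moved.

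Depth limits all comparisons with PBS, whose 7 precursors hold 54043 UMIs, where 3 UMIs stand for 55.5 CPM.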
